A study of Arabidopsis thaliana with 18 samples.

Results

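Nitrate uptake and its assimilation into amino acids were followed through 8 *Arabidopsis thaliana* genes, chosen by locus identifier because their products form the main route from nitrate to asparagine: the transporters *NRT1.1* and *NRT2.1*, the nitrate reductases *NIA1* and *NIA2*, the nitrite reductase *NIR1*, the plastid glutamine synthetase *GLN2* (*GS2* in the RefSeq annotation), the ferredoxin-dependent glutamate synthase *GLU1* and the asparagine synthetase *ASN2*. All 8 were among the 33341 loci listed in the count tables, and all 8 were among the 17986 that passed the filter on low counts (more than 1 CPM, the count scaled to the nuclear total of its library, in at least 3 libraries) and were tested. The clearest differences were at the nitrate reductase step. *NIA2* transcripts were 4.63-fold higher in naïve plants after an excess light (EL) treatment than before it, whereas in plants primed by a week of EL the same treatment went with *NIA2* and *NIA1* transcripts that were 5.30-fold and 4.93-fold lower. The difference between the naïve and primed responses did not pass in edgeR (adjusted p = 0.137 for both genes). When all 12 libraries were used, none of these nitrate reductase differences passed. *NRT2.1* was also lower in the treated naïve plants, at very low counts. It passed the filter on low counts only through naïve and primed plants sampled without that treatment. The other 5 genes did not pass the test of edgeR in any comparison.

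Nitrate enters cells through NRT1.1, which also acts as a nitrate sensor, and through the high-affinity transporter NRT2.1, which works mainly in roots. In the cytosol nitrate reductase turns nitrate into nitrite, a step that needs NADH, and in Arabidopsis most of this activity comes from NIA2. Nitrite is toxic and is reduced to ammonium in the chloroplast by NIR1, which takes its electrons from photosynthetic ferredoxin. GLN2 and GLU1 then fix the ammonium into glutamine and glutamate, together with the ammonium that photorespiration releases, and ASN2 makes asparagine for transport. Nitrate reductase transcripts follow nitrate, sugars, light and the time of day.

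The libraries were made from true leaves 4 to 9 of 3 week old soil-grown Col-0 plants, 3 independent plants per group. Messenger RNA was sequenced from 4 groups of wild type (WT): naïve plants given a triggering EL treatment (N+T) and naïve plants (N), and primed plants given the same triggering treatment (P+T) and primed plants (P). EL was 1000 µmol photons m-2 s-1 for an hour, given 3 times a day for a week as priming. MethylC-seq, which reads DNA methylation after bisulfite conversion, covered 3 unstressed plants each of *strs2*, a T-DNA insertion line in an RNA helicase gene, and of WT. By the labels all plants grew in soil with a slow-release fertilizer at about 3 g/L, while the methods of the study state a lower rate; tissue nitrate was not analysed here, and the clock time of each harvest is not given in the sources used here.

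The mRNA libraries held between 3665503 and 33081543 counts. As in the methods of the study, N-r3 and N+T-r3 were left out of the main tests, so that N and N+T had 2 libraries each and P and P+T had 3; values with all 12 libraries are given beside the results they change. Leaf mesophyll markers (5 of 5 tested) summed to 27917 and 34191 CPM in N+T, below every library of the other groups (43471 and 49183 CPM in N, 41648 to 49955 in P+T and 44309 to 60318 in P), and the root markers *CASP1*, *EXPA7*, *SHV2*, *RHD6* and *PRP3* stayed below 1 CPM in every library. Clock genes differed between groups and set some libraries apart from their own group. *PRR9*, a clock gene that peaks in the morning, had 10.2 and 12.8 CPM in N+T, 2.88 and 2.39 in N, 12.6 to 18.3 in P+T and 10.8 to 40.0 in P, so that N was lowest, as it was for the morning gene *CCA1*. Within groups, *CCA1* had 51.7 CPM in P-r3 against 7.50 and 9.35 in P-r1 and P-r2, the evening gene *TOC1* had 15.97 CPM in P-r3 against 165.5 and 88.4, and in N-r3 *GI* had 16.2 CPM against 268.9 and 282.3 in N-r1 and N-r2. P-r1 stood apart on an excess light marker, with 403.0 CPM of the heat shock gene *HSP101* against 5.84 and 4.66 CPM in P-r2 and P-r3. Their part in the results below was not tested. In whole leaves, fewer cells that express a gene and less RNA per cell cannot be told apart.

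The 4 upstream sequences printed here belong to the 3 genes that passed a test (*NIA1*, *NIA2* and *NRT2.1*) and to *NIR1*, whose product uses the nitrite that nitrate reductase makes. Each is the 250 bases before the annotated start of the locus, read 5′ to 3′ on the strand of the gene from the RefSeq TAIR10.1 assembly: *NIA1* from chr1:29239485-29239734 (minus strand), *NIA2* from chr1:14158202-14158451 (plus), *NIR1* from chr2:6810145-6810394 (plus) and *NRT2.1* from chr1:2523773-2524022 (plus). Capitals mark GAATC or its reverse complement, the core bound by repressors of the NIGT1 type that act on nitrate genes.
NIA1: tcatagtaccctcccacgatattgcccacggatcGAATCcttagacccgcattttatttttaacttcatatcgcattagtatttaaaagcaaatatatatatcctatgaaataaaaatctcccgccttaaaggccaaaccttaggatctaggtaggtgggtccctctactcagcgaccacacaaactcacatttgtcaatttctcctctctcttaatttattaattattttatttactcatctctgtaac
NIA2: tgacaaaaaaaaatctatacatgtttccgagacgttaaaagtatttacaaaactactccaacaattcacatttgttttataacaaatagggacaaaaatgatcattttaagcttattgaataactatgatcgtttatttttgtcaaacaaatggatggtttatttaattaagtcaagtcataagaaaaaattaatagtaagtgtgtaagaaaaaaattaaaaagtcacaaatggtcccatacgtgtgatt
NIR1: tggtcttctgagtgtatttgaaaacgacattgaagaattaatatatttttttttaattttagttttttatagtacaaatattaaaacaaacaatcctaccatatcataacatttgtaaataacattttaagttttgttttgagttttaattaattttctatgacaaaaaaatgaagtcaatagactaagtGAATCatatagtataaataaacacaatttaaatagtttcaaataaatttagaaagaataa
NRT2.1: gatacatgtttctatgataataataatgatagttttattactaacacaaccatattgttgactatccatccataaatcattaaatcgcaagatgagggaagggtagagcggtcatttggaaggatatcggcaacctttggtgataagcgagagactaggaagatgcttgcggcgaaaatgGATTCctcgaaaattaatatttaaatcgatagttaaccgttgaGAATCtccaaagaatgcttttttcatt
The core was present in 4 of the 8 promoters (*NIA1*, *NIR1*, *NRT2.1* and *GLU1*) and in 38.9% of the 27431 promoters of the same length in the genome. It lay 216 bases before the start of *NIA1*, 60 before that of *NIR1*, 91 before that of *GLU1*, and 70 and 27 before that of *NRT2.1*. The core of the nitrate-responsive element (CTT and AAG with 10 bases between them), the G-box CACGTG and the evening element AAAATATCT were searched on both strands, and none of the 8 windows held any of them; 8.02%, 6.49% and 2.36% of all promoters did, in that order. The *NIA2* window had no match to any of these motifs, and its GC content of 25.6% was below the 36.4% of the *NIA1* window and above the 19.2% of the *NIR1* window.

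The nitrate reductase genes lie on chromosome 1, *NIA1* (AT1G77760) from 29235721 to 29239484 on the reverse strand with 4 exons and *NIA2* (AT1G37130) from 14158452 to 14161938 on the forward strand with 3 exons. Over 2586 aligned coding bases they were 73.9% identical, and none of their 64-base words occurred elsewhere in the genome, so uniquely mapped reads could be assigned to either copy.

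*NIA2* had 359.6 CPM in N+T-r1 and 417.2 CPM in N+T-r2, against 114.4 and 74.4 CPM in N-r1 and N-r2. Both triggered naïve libraries were above both naïve ones. The log2 fold change was 2.21 ± 0.63 (SE) with an adjusted p of 0.0482 in edgeR's quasi-likelihood test. *NIA1* had 63.2 and 77.4 CPM in N+T and 32.7 and 35.2 CPM in N, again without overlap (25.6% of all loci had N+T wholly above N by CPM), and its log2 fold change of 1.22 ± 0.46 did not pass (adjusted p = 0.102). Of the 8 genes, 2 passed in N+T against N, 1 in each direction, where 15.2% of all tested loci were called. The lower one, *NRT2.1*, passed the filter on low counts only through untriggered libraries. The *NIA2* call was lost with all 12 libraries (1.61 on the log2 scale, adjusted p = 0.131; N+T-r3 had 142.8 and N-r3 126.7 CPM), without any N or N+T library (0.0923 to 0.262) and without any P+T library (0.0645 to 0.0660), and the *NIA1* difference passed without P-r2 (0.0304). *CCA1*, with 7.07 and 12.4 CPM in N+T and 3.77 and 4.57 CPM in N, moved between the same groups. So did the summed mesophyll markers in the libraries used, though not *RCA* and *CA1*. Their part in the result was not tested.

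In primed plants the order was the opposite. *NIA2* had 145.6, 198.7 and 101.5 CPM in P+T-r1, P+T-r2 and P+T-r3, against 436.4, 482.9 and 1406 CPM in P-r1, P-r2 and P-r3. *NIA1* had 32.3, 28.8 and 18.7 CPM in P+T and 151.4, 57.5 and 189.7 CPM in P. In both genes every P+T library was below every P library, although the P libraries themselves differed by more than 3-fold. By CPM, P+T was wholly below P in 13.8% of all tested loci. *NIA2* fell by 2.41 ± 0.51 on the log2 scale (adjusted p = 0.0384) and *NIA1* fell by 2.30 ± 0.39 (adjusted p = 0.0202). They were the 2 of 8 genes called in P+T against P, where 4.48% of all tested loci were called. Without P-r3, the library with the high *CCA1* value, the log2 fold changes were −1.59 (adjusted p = 0.0519) for *NIA2* and −1.87 (adjusted p = 0.0420) for *NIA1*. The *NIA1* call was also lost with all 12 libraries (adjusted p = 0.145) or without any P+T library (0.0566 to 0.0920), and the *NIA2* call under every such omission except that of P-r1 (0.0532 to 0.156; 0.0838 with all 12 libraries).

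**Figure D1:**
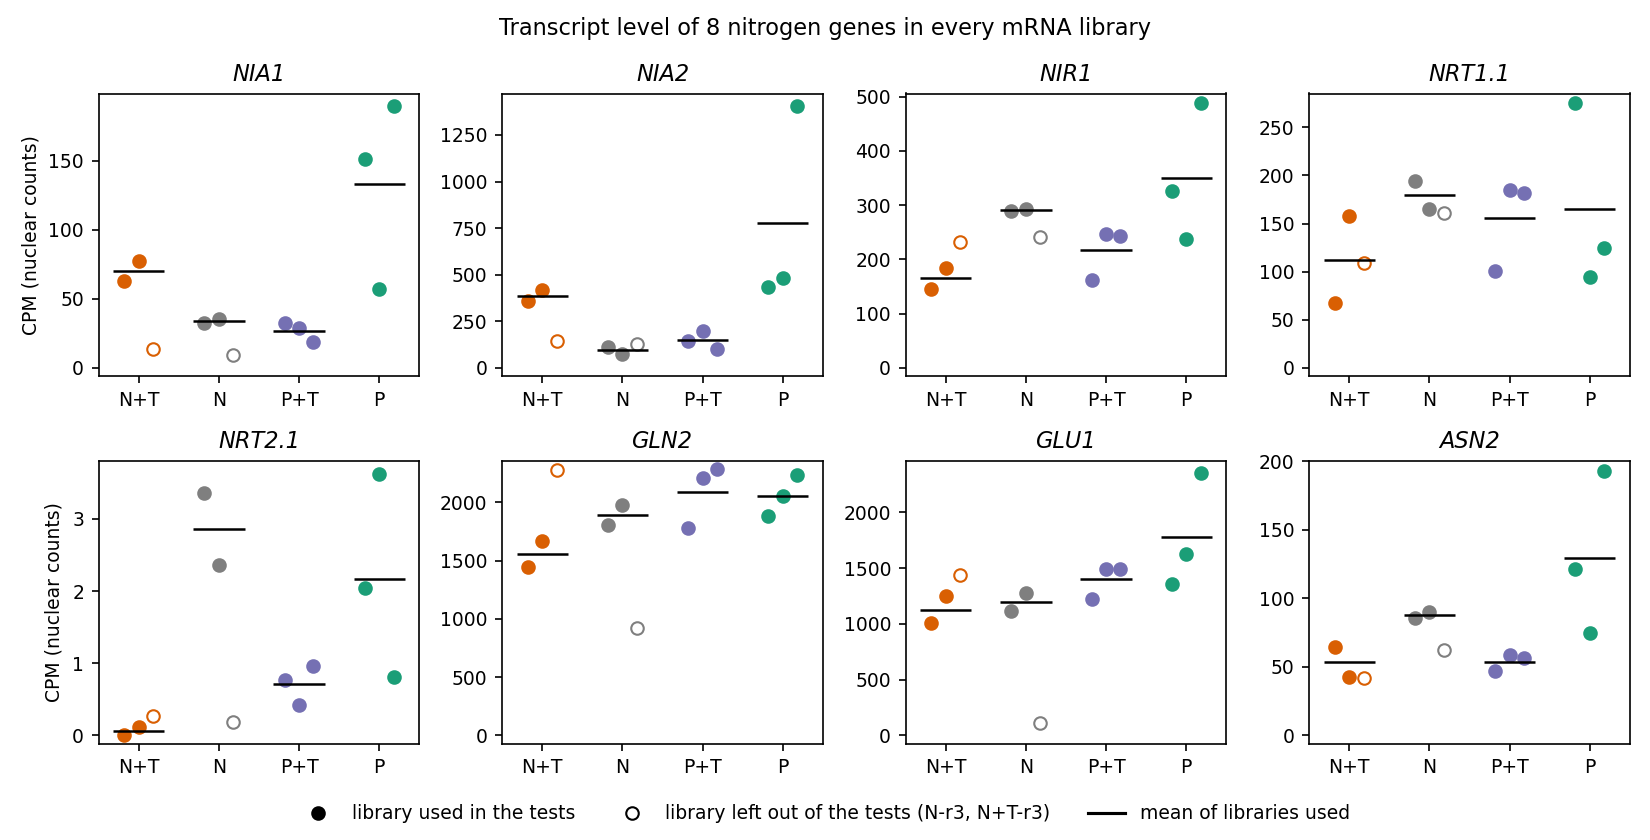
Transcript level of the 8 genes in every mRNA library, in CPM of nuclear counts (vertical axis, from 0), by group (horizontal axis); filled points are libraries used in the tests, open points N-r3 and N+T-r3, and lines the means of the libraries used. *NIA2* was high in N+T (359.6 and 417.2) and P (436.4 to 1406) and lower in N (74.4 and 114.4) and P+T (101.5 to 198.7).

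The difference between the 2 triggering responses was tested as an interaction. It was −4.62 ± 0.82 on the log2 scale for *NIA2* and −3.52 ± 0.61 for *NIA1*, which means that the response of primed plants was lower than that of naïve plants by these amounts. The unadjusted p-values were 0.000376 and 0.000323, and both adjusted p-values were 0.137, so neither passed. DESeq2 called both (adjusted p = 2.14e-06 and 1.47e-05), and edgeR without P-r1 called *NIA2* (0.0321) with 96 loci upward and 146 downward in all (1.35%). On simulated data with 200 loci changed in N+T or in P+T, the interaction test of edgeR recovered 30.5% and 18% of them. It made 5 and 4 false calls. DESeq2 recovered 64% and 68.5%, with 48 and 60 false calls. In edgeR 1 of all loci, or 0.00556%, was called (*AT4G15690*), and DESeq2 called 255 loci upward and 498 downward (4.19%). A pattern of N+T libraries all above N and P+T libraries all below P was found for *NIA1* and *NIA2* among the members and for 122 loci in all, or 0.678% of those tested. With the library scaling used in the tests it was found for 189 loci (1.05%). The pattern is the one that *NIA1* and *NIA2* show in these data, so these shares are no independent support. In both triggering comparisons 467 loci were called (2.6% of those tested). Of these, *NIA2* was 1 of 5 (0.0278% of those tested) that were higher in N+T than in N and lower in P+T than in P. The others were *CIPK3*, *UMAMIT20*, *AT4G15690* and *AT4G15700*, chosen after their values were seen.

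Before triggering, *NIA2* averaged 775 ± 547 CPM in P (SD, n = 3) and 94.4 ± 28.3 CPM in N (n = 2), and *NIA1* averaged 133 ± 68.0 CPM in P and 33.9 ± 1.77 CPM in N. All P libraries were above all N libraries for both genes and also for *GLU1*, as for 7.48% of all tested loci by CPM. The fitted differences were large, 3.20 ± 0.63 for *NIA2* and 2.09 ± 0.45 for *NIA1* on the log2 scale, but none of the 8 genes and 0% of all loci passed in edgeR (adjusted p = 0.267 for *NIA2* and 0.298 for *NIA1*). At an unadjusted p under 0.05 edgeR listed 1576 loci, and DESeq2 called 211 loci upward and 131 downward (1.9%), *NIA2* (9.10e-06) and *NIA1* (0.00108) among the upward ones. Leaving out P-r3 gave 2.38 for *NIA2* and 1.65 for *NIA1*, and leaving out P-r1 brought *NIA2* past the threshold (adjusted p = 0.0236), together with 396 loci upward and 241 downward in all (3.54%). P-r1 is the library with the high *HSP101* value. Of the 7 clock genes listed, *CCA1*, *LHY*, *PRR7* and *PRR9* were also higher in every P library than in N-r1 and N-r2. *TOC1*, *GI* and *PRR5* overlapped between these libraries. The part of the clock genes was not tested. After triggering the direction was the other way, with 149 ± 48.7 CPM of *NIA2* in P+T (n = 3) and 388 ± 40.8 CPM in N+T (n = 2), and 26.6 ± 7.03 CPM of *NIA1* in P+T and 70.3 ± 10.07 CPM in N+T. These differences (−1.41 ± 0.54 and −1.44 ± 0.41) did not pass in edgeR either (adjusted p = 0.214 and 0.198), where 0% of loci were called, 3595 at an unadjusted p under 0.05; DESeq2 called 226 loci upward and 524 downward (4.17%), *NIA1* among them (0.0340) and *NIA2* not (0.0948). These comparisons share libraries with the triggering responses and are not independent of them.

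**Figure D2:**
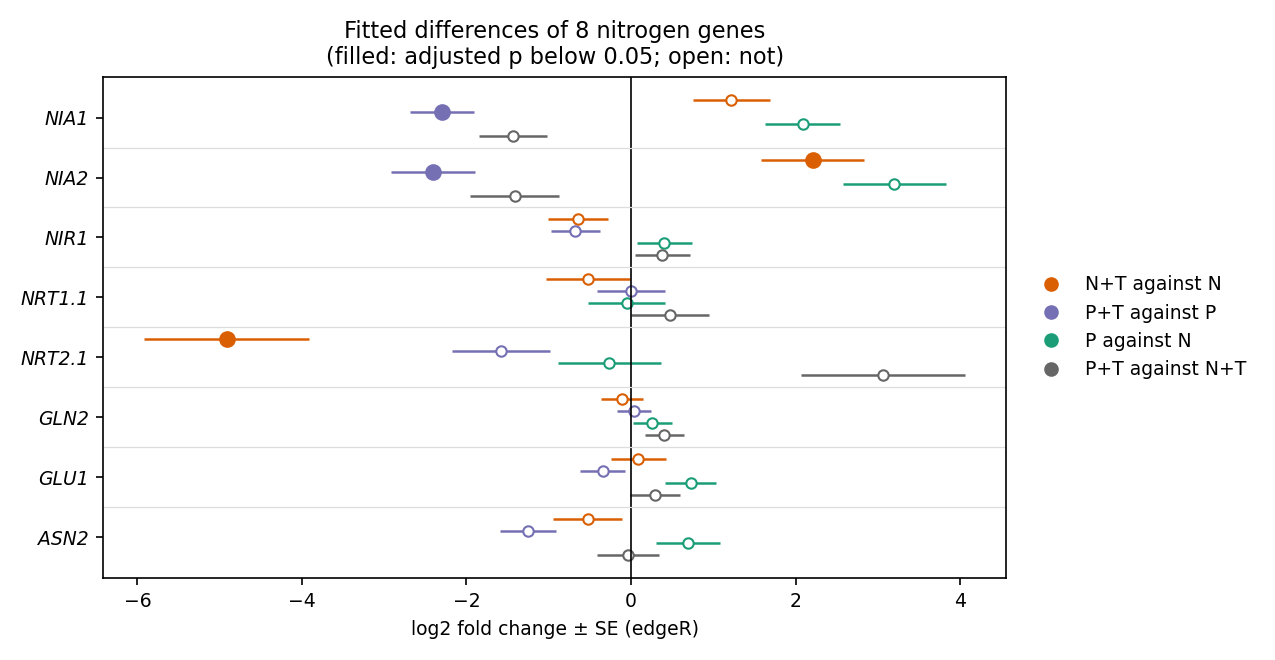
Fitted log2 fold changes of the 8 genes with their standard errors (horizontal axis) in 4 comparisons; filled points passed an adjusted p of 0.05 and open points did not. *NIA1* and *NIA2* lay right of 0 for N+T against N (1.22 and 2.21) and P against N (2.09 and 3.20) and left of 0 in P+T against P (−2.30 and −2.41) and P+T against N+T (−1.44 and −1.41).

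The order of group means for *NIA2* was P, N+T, P+T and N, and for *NIA1* P, N+T, N and P+T. The top pair overlapped in *NIA1* (P-r2 was below both N+T libraries) but not in *NIA2*, and the bottom pair, P+T and N, overlapped in *NIA2* (101.5 to 198.7 CPM in P+T and 74.4 and 114.4 CPM in N) but not in *NIA1* (18.7 to 32.3 and 32.7 to 35.2 CPM). *NIA2* was the more abundant of the pair in every library. Per locus length, its level was 6.14 and 5.82 times that of *NIA1* in N+T, 3.78 and 2.28 times in N, 4.87, 7.45 and 5.85 times in P+T, and 3.11, 9.07 and 8.001 times in P.

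*NIR1* (AT2G15620, chromosome 2, 6810395 to 6812941, forward strand, 4 exons) differed in direction from the nitrate reductases on triggering in naïve plants only. It had 145.0 and 185.1 CPM in N+T and 288.7 and 292.8 CPM in N, where N+T-r3 and N-r3 had 232.7 and 242.2. In primed plants it had 162.5, 246.3 and 242.4 CPM in P+T and 326.1, 237.3 and 488.8 CPM in P, with P-r2 inside the range of P+T. With the library scaling used in the tests, every P+T library was below every P library, as for 13.1% of all tested loci. The log2 fold changes were close to each other, −0.65 ± 0.36 for naïve and −0.68 ± 0.30 for primed plants (adjusted p = 0.236 and 0.232), and the interaction was −0.03 ± 0.47.

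Transcripts for making and for using nitrite were compared as the summed level of *NIA1* and *NIA2* over that of *NIR1*. Each level was taken per locus length and within a library, so the ratio does not depend on library scaling. The ratio was 2.11 and 1.93 in N+T and 0.366 and 0.267 in N. It was 0.789, 0.668 and 0.358 in P+T and 1.29, 1.65 and 2.36 in P. In the 10 libraries used, it was above 1 in every N+T and P library and below 1 in every N and P+T library; N+T-r3 (0.487) and N-r3 (0.408) were both below 1. The ratio uses spans that include introns, so a value of 1 is only a reference, and it was not tested. It describes transcripts only, and enzyme activity and nitrite were not analysed here.

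**Figure D3:**
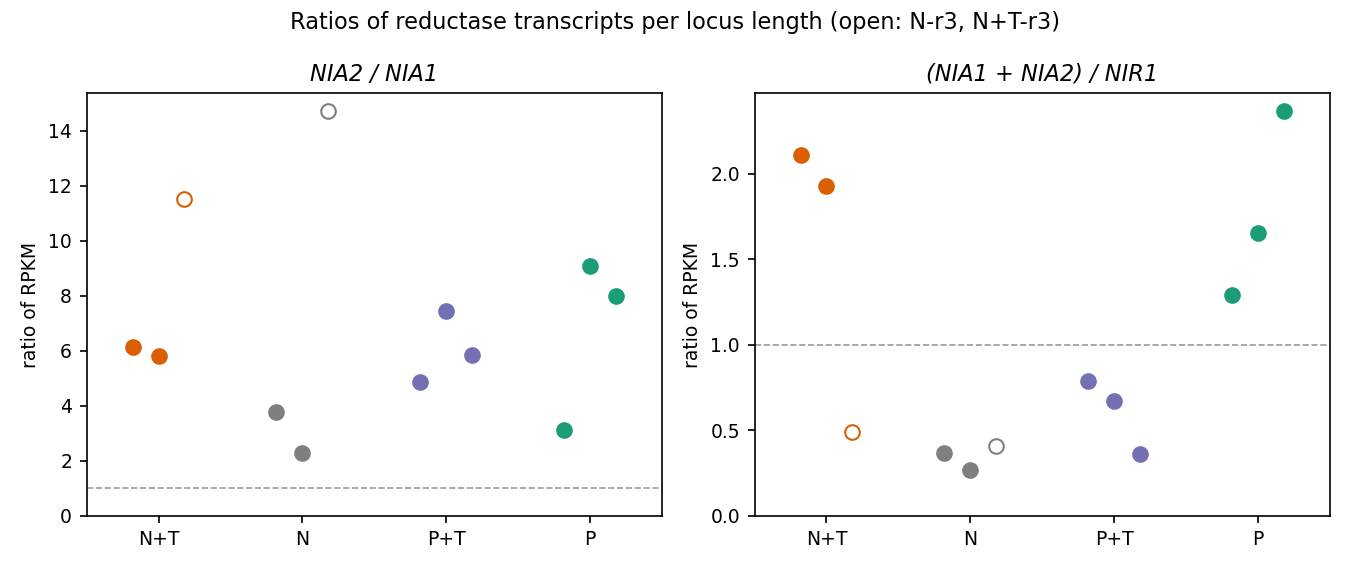
Ratio of *NIA2* to *NIA1* (left) and of *NIA1* plus *NIA2* to *NIR1* (right), per locus length (vertical axis, ratio of RPKM), in every mRNA library by group (horizontal axis); open points are N-r3 and N+T-r3, and the dashed line is a ratio of 1. The right-hand ratio was 1.93 and 2.11 in N+T and 1.29 to 2.36 in P, against 0.267 and 0.366 in N and 0.358 to 0.789 in P+T.

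*NRT2.1* (AT1G08090, chromosome 1, 2524023 to 2526322, forward strand, 3 exons) was close to the limit of detection in these leaves. It had 0 counts in N+T-r1 and 3 in N+T-r2, against 49 and 66 counts in N-r1 and N-r2. Over the group totals, the level in N+T was 0.0318 times that in N, with an exact 95% interval of 0.00647 to 0.0954 that covers counting error only. *NRT2.1* fell, with a fitted log2 fold change of −4.91 ± 1.00 (adjusted p = 0.0200). It was above 1 CPM only in N-r1, N-r2, P-r1 and P-r2, so it passed the filter on low counts through untriggered libraries alone. That filter favours loci that are lower on triggering, so the call is no independent support for a fall. N-r3, with 5 counts, lay near the N+T libraries (1 count in N+T-r3), and with all 12 libraries the adjusted p was 0.0895; it was 0.0511 to 0.0997 without any N or N+T library. In primed plants *NRT2.1* had 17, 11 and 24 counts in P+T and 65, 103 and 27 counts in P, so that P-r3 lay close to P+T, and the log2 fold change of −1.58 ± 0.59 did not pass (adjusted p = 0.167). In P+T against N+T its 0.77, 0.42 and 0.96 CPM were above 0 and 0.11 CPM, and the difference of 3.07 ± 1.00 did not pass (adjusted p = 0.204). Of its 64-base words, 5.81% occur elsewhere in the genome, so some reads may have been discarded as not unique; its neighbour *NRT2.2* had at most 1 count in any library.

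*NRT1.1* (AT1G12110, chromosome 1, 4105223 to 4109601, forward strand, 5 exons) was expressed at a readily measured level in these leaves. It had 67.0 and 157.7 CPM in N+T, 194.4 and 164.8 CPM in N, 100.7, 184.5 and 181.9 CPM in P+T, and 274.6, 94.6 and 124.6 CPM in P. The libraries of P spanned those of every other group except N+T-r1, and no comparison passed. On triggering, its log2 fold change was −0.52 ± 0.51 in naïve plants and near 0 in primed plants, with an SE of 0.41.

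*GLN2* (AT5G35630, chromosome 5, 13830429 to 13833542, forward strand, 11 exons) and *GLU1* (AT5G04140, chromosome 5, 1129785 to 1138488, forward strand, 32 exons), which act together in the chloroplast, varied least among the members over the 10 libraries used. *GLN2* had 1448 and 1672 CPM in N+T, 1807 and 1977 CPM in N, 1782 to 2288 CPM in P+T (median 2213) and 1884 to 2233 CPM in P (median 2056). *GLU1* had 1007 and 1249 CPM in N+T, 1114 and 1274 CPM in N, 1223 to 1494 CPM in P+T and 1357 to 2349 CPM in P, the highest in P-r3. Neither gene passed in any comparison. The log2 fold changes to triggering were −0.11 ± 0.26 in naïve and 0.04 ± 0.21 in primed plants for *GLN2*, and 0.09 ± 0.33 and −0.34 ± 0.27 for *GLU1*. In N-r3 *GLN2* had 918.7 CPM and *GLU1* 114.7 CPM, both below N-r1 and N-r2, and with that library and N+T-r3 included the log2 fold change of *GLU1* in N+T against N was 0.74 (adjusted p = 0.532). *GLU1* is overlapped on the opposite strand by AT5G04150, and the counts were made by strand.

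*ASN2* (AT5G65010, chromosome 5, 25969035 to 25972575, forward strand, 13 exons) had 64.9 and 43.0 CPM in N+T and 86.0 and 90.3 CPM in N. In primed plants it had 47.0, 58.6 and 56.3 CPM in P+T and 121.7, 74.6 and 192.7 CPM in P, every P+T library below every P library. The log2 fold changes of −0.53 ± 0.42 and −1.25 ± 0.34 did not pass (adjusted p = 0.394 and 0.0787), the second at −0.77 without P-r3 (adjusted p = 0.147). With *NIA1*, *NIA2* and *ASN2*, 3 of the 8 genes had P+T libraries wholly below P by CPM, as did 13.8% of all tested loci. Counting either direction, 22.8% of all tested loci did not overlap between these groups.

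Per locus length, the median over the 10 libraries ran from 620.1 RPKM for *GLN2*, 151.1 for *GLU1*, 95.9 for *NIR1*, 80.0 for *NIA2*, 36.8 for *NRT1.1*, 19.7 for *ASN2* and 12.3 for *NIA1* to 0.386 for *NRT2.1*. By mean RPKM *GLN2* lay at the 99.5th percentile of the tested loci and *NRT2.1* at the 5.09th. The spread was ordered otherwise: the coefficient of variation of CPM over the 10 libraries was 105% for *NIA2*, 91.1% for *NRT2.1*, 83.4% for *NIA1*, 53.9% for *ASN2*, 39.1% for *NRT1.1*, 37.8% for *NIR1*, 26.5% for *GLU1* and 13.9% for *GLN2*, against a median of 27.1% over all tested loci. *NIA2* spanned an 18.9-fold range and *GLN2* a 1.58-fold range.

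Across the 10 libraries, which share groups and scaling, the log2 CPM of *NIA1* and *NIA2* had a Pearson r of 0.88, *NIR1* and *ASN2* of 0.87, and *GLN2* and *GLU1* of 0.78. *NIA2* and *NIR1* had 0.30, and *NIA2* and *NRT2.1* −0.24. The loci most like *NIA2* over these libraries were *TDT*, a tonoplast dicarboxylate transporter (r = 0.946), and *CIPK3*, a protein kinase of the CBL-interacting family (0.943). For *NIA1* they were *MIR414* (0.924) and *AT1G63880* (0.908), for *NIR1* *AT1G73600* (0.955) and *OASB*, a plastid cysteine synthase (0.952), and for *ASN2* *AT5G15240* (0.954) and *AT5G11710* (0.9503). *GLN2* was most like *TROL* (0.975) and *AT1G64680* (0.972), *GLU1* like *ZKT* (0.966) and *AT2G41040* (0.962), *NRT1.1* like *AT5G24170* (0.963) and *STR16* (0.9505), and *NRT2.1* like *AT5G26622* (0.976) and *AT1G31410* (0.973). *TROL*, which tethers ferredoxin-NADP reductase to the thylakoid, and *ZKT* encode chloroplast proteins.

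The wider pathway was covered by 77 other loci in 6 lists, of which 67 were tested. In N+T against N, 11 rose and 4 fell (22.4%, against 15.2% of all tested loci), with a median log2 fold change of 0.52 against −0.00 over all loci. In P+T against P, 1 rose and 3 fell (5.97%, against 4.48%), with a median of −0.12 against −0.01. None passed in edgeR between P and N, between P+T and N+T or in the interaction, where DESeq2 called 8, 4 and 9 of them (1 upward and 3 downward in P+T against N+T, all 8 upward in P against N and all 9 downward in the interaction). With all 12 libraries the counts were 1 up and 1 down in N+T against N (*BT1* and *AT3G16180*) and 0 up and 1 down in P+T against P (*TGA4*), and the first median was 0.23; 3.99% and 0.862% of all loci were then called. Without P-r3 they were 9 and 5, and 0 and 3 (14.5% and 2.06% of all loci). Without P-r1 they were 18 and 6, and 3 and 8 (23.2% and 12.5% of all loci), with 8 up in P against N and 6 down in the interaction. DESeq2 gave 21 and 6, and 4 and 8 (25.1% and 12.0% of all loci). These alternative counts, and those of DESeq2 for the lists, were chosen after seeing the data.

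Among nitrate transporters the called loci fell. *AT1G52190* and *AT3G16180*, known as *NRT1.11* and *NRT1.12*, which move nitrate within the shoot, had 15.8 and 15.6 CPM and 4.06 and 6.27 CPM in N+T, against 51.7 and 89.7 CPM and 22.4 and 37.9 CPM in N. Their log2 fold changes were −1.996 ± 0.52 (adjusted p = 0.0388) and −2.36 ± 0.55 (0.0294). In primed plants *CLC-A*, which loads nitrate into the vacuole, had 49.5, 33.4 and 28.4 CPM in P+T and 82.1, 126.3 and 93.4 CPM in P (−1.45 ± 0.25, adjusted p = 0.0218). Including *NRT1.1* and *NRT2.1*, 15 loci of this list were tested, 3 fell in N+T and 1 fell in P+T.

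Around nitrite reductase, *UPM1*, which makes the precursor of its sirohaem cofactor, had 46.2 and 49.9 CPM in N+T and 28.6 and 22.2 CPM in N (1.09 ± 0.26, adjusted p = 0.0314). *RFNR1*, a root-type ferredoxin-NADP reductase, rose by 1.16 and *AT3G02360*, a 6-phosphogluconate dehydrogenase, by 0.83 on the log2 scale. For both, N+T-r3 (13.1 and 96.4 CPM) lay within the range of the N libraries when N-r3 was included. *AT2G43760*, of the family that builds the molybdenum cofactor of nitrate reductase, had 15.5, 12.0 and 12.9 CPM in P+T and 23.8, 25.0 and 25.5 CPM in P (−0.88 ± 0.14, adjusted p = 0.0180).

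In the ammonium list, 4 of 18 tested loci rose in N+T against N and none fell. Over all tested loci, 7.74% rose and 7.43% fell. *GLU2*, the second ferredoxin-dependent glutamate synthase, had 78.5 and 65.3 CPM in N+T against 28.8 and 26.9 CPM in N (1.55 ± 0.24, adjusted p = 0.00999), and 67.7, 47.3 and 55.1 CPM in P+T against 28.0, 34.5 and 29.8 CPM in P (0.88 ± 0.19, adjusted p = 0.0393). Triggered libraries were above untriggered ones in both backgrounds, where its homologue *GLU1* did not pass. The ammonium transporter *AMT1;1* had 306.7 and 341.9 CPM in N+T and 108.2 and 85.6 CPM in N (1.91 ± 0.50, adjusted p = 0.0390). The libraries left out had the opposite order, with 69.9 CPM in N+T-r3 and 121.9 CPM in N-r3. The cytosolic glutamine synthetases *GLN1.3* and *GSR2* rose by 1.39 and 0.81 on the log2 scale. In N+T-r3 they had 18.8 and 155.1 CPM, against 13.3 and 330.7 CPM in N-r3, so *GSR2* had the opposite order there. Among asparagine synthetases none of 3 passed. *ASN1*, a gene induced in darkness and named here after its values were seen, had 3.40 and 2.82 CPM in N+T and 112.2 and 50.2 CPM in N, and 10.06, 2.88 and 2.84 CPM in P+T and 328.2, 26.0 and 2.39 CPM in P, the last in P-r3. N-r3, left out of the tests, had 2.40 CPM, near the N+T libraries.

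Of the 20 tested regulators, 4 rose and 2 fell in N+T against N, where 7.74% of all tested loci rose and 7.43% fell. *BT1*, of the BTB and TAZ domain family, had 99.6 and 72.9 CPM in N+T and 37.1 and 22.6 CPM in N (1.72 ± 0.43, adjusted p = 0.0359). The MYB-like repressor *AT1G25550* rose by 1.63, the nitrate-responsive factor *TGA1* by 1.42 and the LBD repressor *LBD38* by 0.94 on the log2 scale. These rises held only in the libraries used. N-r3 had 57.3 CPM of *AT1G25550* and 12.0 CPM of *LBD38*, above every N+T library. N+T-r3 had 4.10 CPM of *TGA1*, below every N library. *AT2G17150* (*NLP1*) and *TGA4* fell by 0.62 and 0.59, where *NLP1* was named after its value was seen. In the libraries left out, *NLP1* had the opposite order (10.4 CPM in N+T-r3 and 1.56 CPM in N-r3). *TGA4*, the close homologue of *TGA1*, also fell in primed plants, with 6.50, 6.24 and 6.27 CPM in P+T and 16.4, 15.3 and 16.1 CPM in P (−1.31 ± 0.13, adjusted p = 0.00504).

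**Figure D4:**
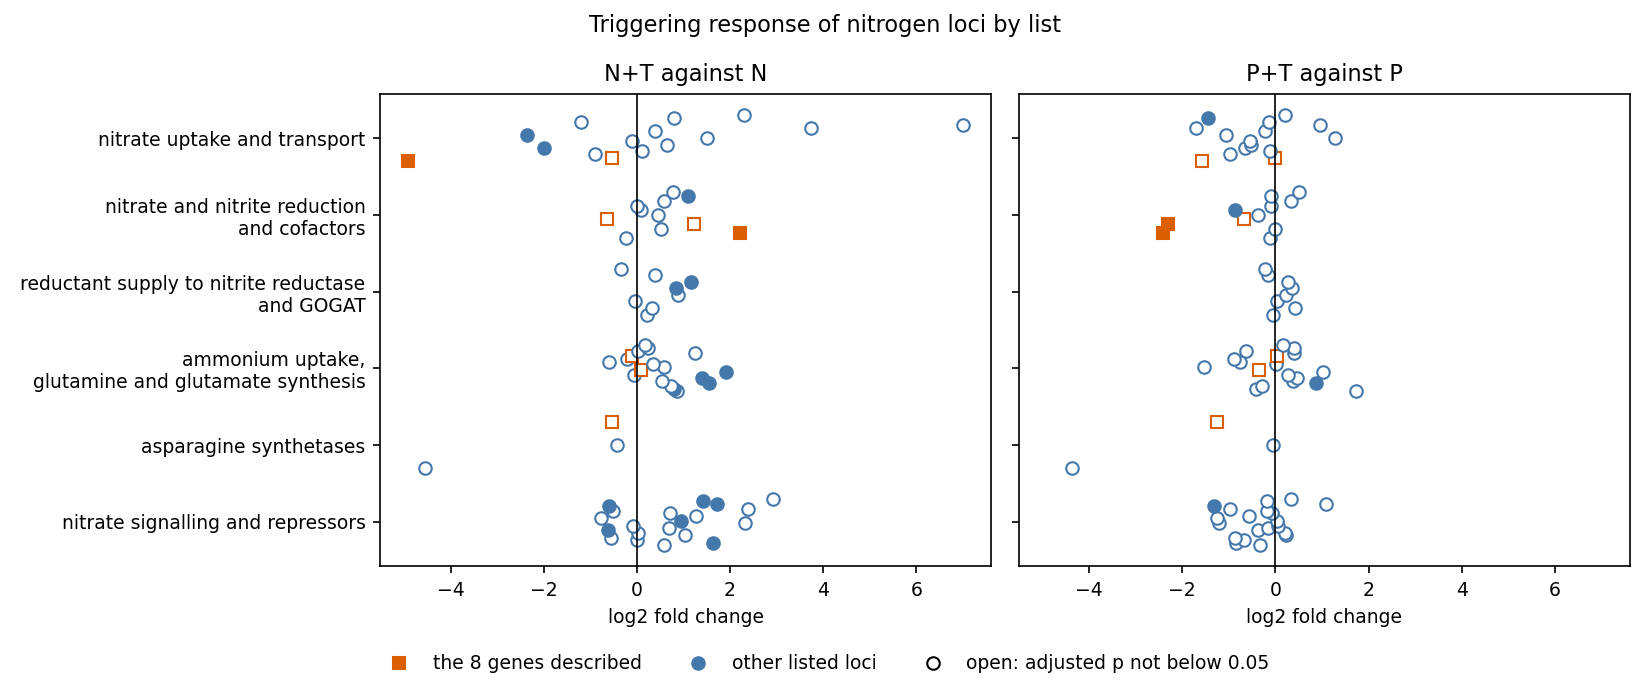
Log2 fold changes (horizontal axis) of the tested loci of 6 nitrogen lists (rows) in N+T against N (left) and P+T against P (right); squares are the 8 genes described, circles the other listed loci, and filled symbols passed an adjusted p of 0.05. Of the circles, 11 were filled right of 0 and 4 left of 0 in naïve plants, against 1 and 3 in primed plants.

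DNA methylation, a readout that played no part in choosing the genes, was compared between unstressed *strs2* and WT plants over gene bodies and the 1 kb upstream, from cytosines read more than 3 times. The CG level of the gene body split the pathway in the same way in both genotypes. It was at most 5.17% in *NIA1*, *NIA2*, *NIR1*, *NRT1.1* and *NRT2.1* in every plant, and between 13.4% and 19.9% in *GLN2*, *GLU1* and *ASN2*, against a median of 2.71% over all loci in WT. Body levels in the non-CG contexts CHG and CHH (where H is any base but G) were at most 1.05% and 0.892%. Body CG levels of the genotypes overlapped for all 8 genes, where 24.0% of all loci did not overlap.

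Upstream, CG methylation was near 0 for *NIA1*, *NRT1.1*, *NRT2.1* and *GLU1* (at most 1.47% in any plant) and high for others. The *NIA2* upstream region had 34.5%, 37.9% and 38.6% in *strs2* and 28.3%, 27.2% and 32.9% in WT, from 125 to 295 calls per plant. All *strs2* plants were above all WT plants, by 7.56 percentage points on average. It was the only member whose genotypes did not overlap, where 17% of all loci did not; the two-sided exact permutation p was 0.1, the smallest that 3 plants against 3 allow, and 1 after adjustment over the 48 tests of region, context and gene. With cytosines read at least 6 times the genotypes overlapped (a difference of 11.2 points), and with at least 10 the difference was −13.8 points. Its upstream levels in CHG and CHH context were at most 1.39% and 0.884%.

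The upstream region of *ASN2* was methylated in all contexts. CG levels were 60.4%, 67.6% and 65.8% in *strs2* and 66.7%, 69.8% and 57.6% in WT, CHG levels 37.5% to 46.4% and 37.3% to 40.0%, and CHH levels 5.58% to 10.7% and 5.94% to 7.14%. The genotypes overlapped in each context. Of this 1 kb, 604 bases fall in the protein-coding locus AT5G65005. *GLN2* had an upstream CG level of 54.1% to 76.1% in *strs2* and 58.3% to 62.9% in WT, from 44 to 89 calls, with a CHH level of 2.93% to 4.43% and 3.28% to 7.13%; its CHG level rested on as few as 15 calls. *NIR1* had 4.49% to 19.1% and 7.20% to 15.1% in CG context. No RNA libraries of *strs2* were analysed here, so these levels have no transcript counterpart.

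**Figure D5:**
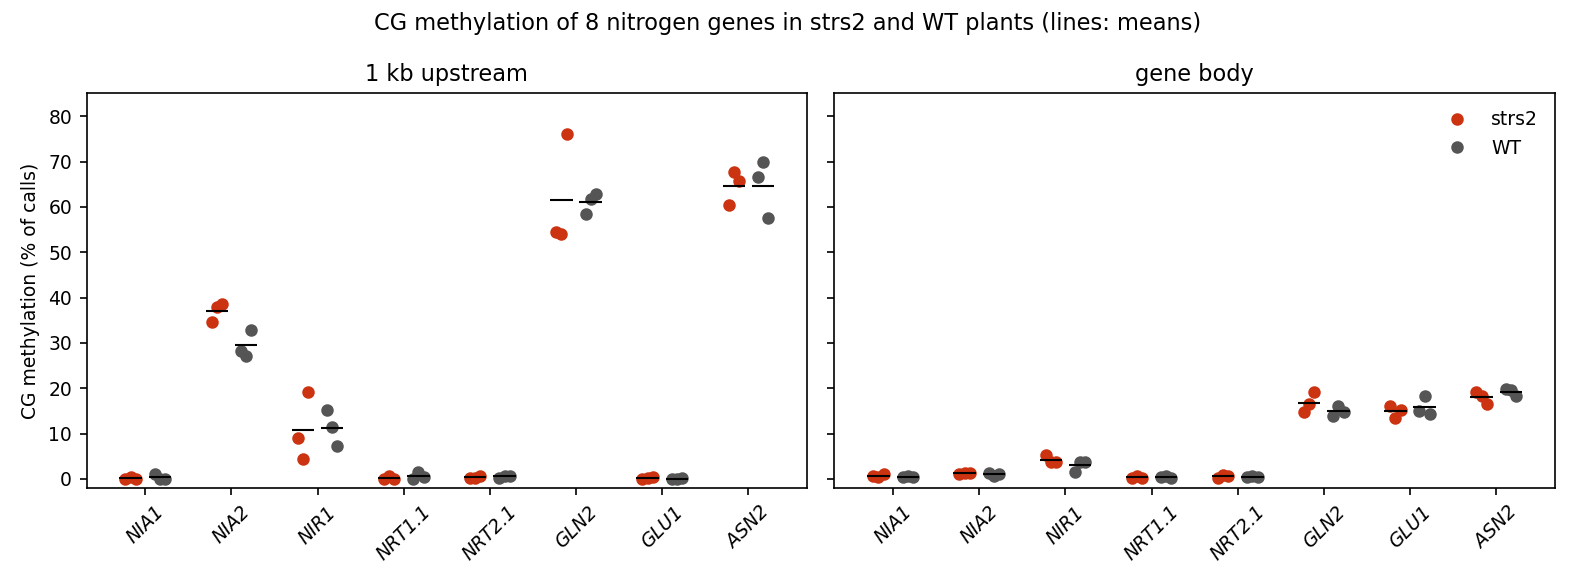
CG methylation (vertical axis, percent of calls) of the 1 kb upstream region (left) and the gene body (right) of the 8 genes in 3 *strs2* plants and 3 WT plants; points are plants and lines means. *ASN2* and *GLN2* upstream regions were between 54.1% and 76.1%, and only the *NIA2* upstream region showed *strs2* (34.5% to 38.6%) wholly above WT (27.2% to 32.9%).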

How the data were processed

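The 8 members, the lists and the tests were chosen with earlier results of these data known. The deposited mRNA values are raw counts, which the authors made by trimming, unique alignment to TAIR10 (Subread 1.6.2) and strand-aware counting over the full span of each Araport11 locus (featureCounts, 1.5.0-p1 in the file headers). For MethylC-seq the authors used Trim Galore 0.3.7, Bismark 0.14.5 and Bowtie2 2.2.9; the deposited values are counts of methylated and of all calls per cytosine and the methylated percent, of which the counts were used.

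Chloroplast (133), mitochondrial (152) and rRNA (4) loci were removed, holding 0.0521% to 2.56% of a library's counts, and CPM refers to the rest. Under TMM scaling, edgeR 4.0.16 (R 4.3.3; legacy quasi-likelihood form; limma 3.58.1) fitted 1 mean per group, and p-values were adjusted by Benjamini-Hochberg over 17986 loci at a threshold of 0.05. The steps were tested on simulated data, where DESeq2 made more false calls than edgeR and recovered more of the changed loci. Alternatives were DESeq2 1.42.0, its size factors, no filter, all 12 libraries, the newer edgeR form, a replicate block and leaving out each library. Methylation levels are methylated over all calls, summed per plant, with at least 20 calls asked for; levels under that are named. Exact permutation tests used scipy 1.17.1, figures matplotlib 3.10.9, and alignment blastn 2.17.0.

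Named genes were the 8 members, at most 4 called loci per list and comparison with the largest fold change (others are said to be chosen after their values were seen), and the 2 loci with the highest Pearson r (log2 CPM with a prior count of 2) per member. Of 33341 loci, 32909 were matched to TAIR10.1 by identifier, and all 8 members had equal coordinates there. Root, mesophyll, clock and excess light markers are given as levels; the excess light markers summed to 982.4 and 4166 CPM in N+T, 67.4 and 90.2 in N, 1229 to 1717 in P+T and 10.6 to 413.0 in P.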

Additional observations from a re-analysis of the deposited data

Results flagged for a closer look

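For both nitrate reductase genes the N+T libraries were above N and the P+T libraries below P, without overlap in the 10 libraries used. By CPM this held for 0.678% of all tested loci. *NIA1* did not pass in N+T against N in edgeR (adjusted p = 0.102), and with N+T-r3 and N-r3 its N+T and N libraries overlapped. For *NIA2* the 2 N+T libraries (359.6 and 417.2 CPM) were above the 2 N libraries (114.4 and 74.4 CPM), and the 3 P+T libraries (101.5 to 198.7 CPM) were below the 3 P libraries (436.4 to 1406 CPM), a difference of responses of −4.62 on the log2 scale. For *NIA1* the difference of responses was −3.52. The interaction test of edgeR gave an adjusted p of 0.137 for both. N+T-r3 had 142.8 CPM of *NIA2* and 13.4 CPM of *NIA1*, and N-r3 had 126.7 and 9.28 CPM; with these libraries the differences were −4.02 and −3.44 (adjusted p = 0.997 for both). Without P-r3, in which *CCA1* was at 51.7 CPM and *TOC1* at 15.97 CPM, they were −3.80 and −3.09 (adjusted p = 0.192 for both). The part of time of day in this pattern was not tested.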

How the results depend on the processing

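The number of members called in N+T against N was 2, against 0 with all 12 libraries, 1 with the replicate block and 0 to 3 when 1 library was left out. In P+T against P it was 2, against 0 with all 12 libraries, 0 with the block and 0 to 2 on leaving out 1 library. DESeq2 called 2 members in P against N, 1 in P+T against N+T and 2 in the interaction, where edgeR called 0; leaving out 1 library gave 0 to 1, 0 and 0 to 1. With all 12 libraries the sign turned for *GLN2* in N+T against N (0.35), *NRT1.1* in P+T against P (−0.0016), *NRT2.1* in P against N (0.28), *ASN2* in P+T against N+T (0.060) and *GLN2* in the interaction (−0.32). The sign also turned on leaving out 1 library, within −0.0090 to 0.18 for *GLU1* in N+T against N, −0.24 to 0.44 for *NRT1.1* and −0.11 to 0.16 for *GLN2* in P+T against P, −0.50 to 0.19 for *NRT1.1* and −0.96 to 0.12 for *NRT2.1* in P against N, −0.35 to 0.37 for *ASN2* in P+T against N+T and −0.22 to 0.36 for *NIR1* in the interaction. The cause was not tested. Over all loci, N+T against N gave 1392 higher and 1336 lower, against 355 and 362 with all 12 libraries and 2577 and 1932 in DESeq2; P+T against P gave 368 and 438, against 96 and 59, and 916 and 1242. Leaving out 1 library took the first pair to 0 and 1 (N-r2), 29 and 76 (N-r1), 210 and 156 (N+T-r1) or 2046 and 2120 (P-r1), and the second to 55 and 22 (P+T-r3), 95 and 48 (P+T-r2) or 976 and 1266 (P-r1); P+T against N+T gave 24 and 202 without N+T-r2, where no locus was called with it. Methylation: 0 members had genotypes that did not overlap over gene bodies (1 as a mean over cytosines, 0 to 2 without 1 plant), and 1 did upstream (0 at a depth of at least 6, 1 to 2 without 1 plant).

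The replicate numbers did not pair the samples, which were independent plants: same-numbered P+T and P libraries had deviations correlated at 0.33, −0.096 and −0.33. With the replicate block, *NIA2* in N+T against N was 2.197 (adjusted p = 0.0605), *NIA1* in P+T against P −2.21 (0.0510), *NIA2* −2.15 (0.0840), *NRT1.1* in P+T against P −0.024 and *NIR1* in the interaction 0.026.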
